A study of Mus musculus with 6 samples.

Results

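Plasminogen activators and the serpins that hold them in check were described here as a set of 5 genes out of the 31053 genes counted in each library: the activators Plat and Plau, the receptor Plaur, and the inhibitors Serpine2 and Serpinb2. The genes were chosen by symbol with their levels in these libraries, by cell class and by group, already known, so the levels and differences below are a description. The data are droplet single-cell transcriptomes with YUMM2.1, a mouse melanoma line, given as the source. A library labelled Empty vector was compared with a library labelled Bmal1 WT, Bmal1 (gene Arntl) being a DNA-binding activator of the circadian clock. Each library pooled 3 replicates told apart by hashtag antibodies (h1, h7 and h8 in Empty vector, h3, h5 and h9 in Bmal1 WT). No age, sex, treatment or time was labelled, nor a culture or tissue of origin, and it was not labelled whether hashtags marked separate animals or cultures. The promoter that drives Bmal1 and the number of clones were not given either. Each group was 1 channel, so group and channel cannot be told apart, and p-values measure only the spread between hashtags, which may be technical. A set of files labelled Bmal1 bHLH held the same values as the Bmal1 WT files, so the pair was counted once.

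Plasmin is the protease that dissolves fibrin clots and helps degrade extracellular matrix, and it is released from inactive plasminogen by a pair of activators. Tissue-type activator (tPA, Plat) works mainly on fibrin, whereas urokinase (uPA, Plau) works mainly at the cell surface, where its receptor uPAR (Plaur) concentrates it. Serpins are suicide inhibitors that trap their protease: Serpine2 (protease nexin 1) inhibits thrombin as well as both activators, and Serpinb2 (PAI-2) inhibits urokinase but stays largely inside the cell. In tumors the receptor and inhibitors are often made by stromal and myeloid cells as well as by cancer cells.

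On the GRCm38 build (GENCODE M21), Plat is at chr8:22757727-22782844 (plus strand), Plau at chr14:20836660-20843385 (plus), Plaur at chr7:24462484-24475968 (plus), Serpine2 at chr1:79794197-79861180 (minus) and Serpinb2 at chr1:107511423-107535478 (plus). All are protein-coding. Serpinb2 overlaps its neighbour Serpinb10 on the same strand, so reads there could be split, and the other 4 overlap no annotated gene. Because Bmal1 is a basic helix-loop-helix factor whose partner complex binds the E-box CACGTG, and because Plaur and Serpinb2 are textbook targets of AP-1 (TGANTCA), the 250 bases before the transcription start are shown for the 3 of 5 members that matched RefSeq promoters (GRCm38.p6), 5′ to 3′, with AP-1 matches in capitals.
Plaur (chr7:24462233-24462482, plus strand): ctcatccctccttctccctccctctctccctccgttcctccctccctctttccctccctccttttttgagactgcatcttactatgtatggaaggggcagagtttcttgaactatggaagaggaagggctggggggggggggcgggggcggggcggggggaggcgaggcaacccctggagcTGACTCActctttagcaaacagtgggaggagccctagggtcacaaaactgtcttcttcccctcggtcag
Serpinb2 (chr1:107511173-107511422, plus strand): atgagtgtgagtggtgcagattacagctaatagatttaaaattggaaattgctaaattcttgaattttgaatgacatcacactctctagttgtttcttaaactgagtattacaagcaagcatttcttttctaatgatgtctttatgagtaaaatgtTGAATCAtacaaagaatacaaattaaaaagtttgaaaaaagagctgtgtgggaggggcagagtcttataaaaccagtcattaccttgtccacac
Serpine2 (chr1:79858666-79858915, minus strand): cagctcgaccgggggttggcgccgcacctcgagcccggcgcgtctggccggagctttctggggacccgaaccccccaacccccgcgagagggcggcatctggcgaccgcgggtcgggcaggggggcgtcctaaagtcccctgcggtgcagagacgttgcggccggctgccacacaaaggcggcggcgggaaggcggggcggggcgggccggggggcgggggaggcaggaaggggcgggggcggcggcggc
The RefSeq start used for Serpine2 lies inside the GENCODE span given above. On either strand, the AP-1 letters occurred once in the Plaur window, beginning 69 bases before the start, and once in the Serpinb2 window, beginning 94 bases before it. RefSeq lists a second Serpinb2 start (window chr1:107511260-107511509, not shown), before which the same letters begin at 181 bases. The Serpine2 window held no AP-1 match, and none of these windows held CACGTG. Among all 32851 promoter windows of this length in the table, 6.75% held the AP-1 letters and 6.02% held CACGTG. The Serpine2 window was 78.8% G and C, against 59.6% for Plaur and 32.4% for Serpinb2. These matches describe letters only and say nothing about binding.

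Cells were assigned to classes by marker genes, and levels are given as UMIs (counted molecules) scaled to 1000000 UMIs of a class in a hashtag replicate (CPM). Molecules were counted at their 3′ ends without scaling for length, so levels were compared for one gene between classes and not between genes. The Empty vector library held 3978 cells after filtering and the Bmal1 WT library 2386, of which 3364 and 1888 fell into a class. The 6 hashtags held 326 to 1403 cells and 4655548 to 11873279 UMIs each. Cells bearing no hashtag (388 and 660) or several (368 and 105) entered no replicate, and 5 barcodes occurred in both libraries. Arntl in melanoma-like cells was at 53.0 to 123 CPM in Empty vector hashtags and at 50.3 to 66.9 in Bmal1 WT hashtags, so its counts did not set the libraries apart. The 123 CPM came from 9 UMIs in 5 cells of h7. Whether these counts take in a transcript made from a vector was not tested.

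The class names were checked first. Melanoma-like cells (122 Empty vector, 333 Bmal1 WT) carried UMIs of Sox10 in 77.8% and of S100b in 86.6% of cells, but the pigment genes Mlana and Tyrp1 were at 0 and Pmel, Dct and Tyr had 4 to 7 UMIs each in all 455 cells. The class therefore rests on neural crest genes that glial cells also use. Fibroblast-like cells (142 and 233) carried Col1a1 in 90.4% of cells, and Sox10 in 0.8%. In melanoma-like hashtag sums, the 12 fibroblast markers together reached 81.7 to 536 CPM in Empty vector and 310 to 413 in Bmal1 WT, mostly from Thbs2, Col3a1 and Col6a3. Col1a1 in this class was at 3.68 CPM, against 4657 in fibroblast-like cells.

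Each member had its own place among the classes. Plat was a gene of melanoma-like and fibroblast-like cells. In fibroblast-like cells it was at 600 ± 127 CPM (mean ± SD, n = 5 hashtags with at least 10 cells), ranging from 438 to 749. In melanoma-like cells it was at 466 ± 142 CPM (n = 5), ranging from 317 to 693. These ranges overlapped, and no other class with a level by hashtag overlapped them. They leave out cells without a hashtag, which were 98 of 142 and 179 of 233 fibroblast-like cells in Empty vector and Bmal1 WT. In the melanoma-like class such cells were 63 of 122 and 212 of 333. The cells left out held Plat at 937 and 682 CPM in the fibroblast-like class and at 813 and 372 in the melanoma-like class. Dendritic cell-like, NK cell-like, T cell-like and macrophage- or monocyte-like cells averaged 2.60 to 5.04 CPM of Plat (n = 6 each), with ranges that overlapped one another.

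Serpine2 followed the same classes with a wider gap. Fibroblast-like cells held 2200 ± 626 CPM (n = 5), from 1683 to 2912. Melanoma-like cells held 440 ± 333 CPM (n = 5), from 43.6 to 871, and so lay below the lowest fibroblast-like hashtag. Fibroblast-like cells without a hashtag held 3474 CPM in Empty vector and 2318 in Bmal1 WT, and such melanoma-like cells 812 and 660. The remaining classes averaged 2.26 to 10.1 CPM (n = 6 each). Across the 34 sums of 6 classes by hashtag, the logged levels of Serpine2 and Plat had a Pearson r of 0.95, which is a description because sums of one class share their cells' type and those of one hashtag their library.

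Plaur led in macrophage- or monocyte-like cells, at 416 ± 109 CPM (n = 6), from 248 to 556. Melanoma-like cells came next at 149 ± 48.7 CPM (n = 5), from 84.3 to 215, below the lowest macrophage- or monocyte-like hashtag. Fibroblast-like cells held 50.9 ± 48.7 CPM (n = 5), and their range of 8.83 to 126 overlapped that of melanoma-like cells. Dendritic cell-like, T cell-like and NK cell-like cells averaged 15.7, 14.9 and 6.89 CPM (n = 6 each) and overlapped one another. Neutrophil-like cells were too few for a level by hashtag (8 cells, all Bmal1 WT), and their pooled 45 Plaur UMIs gave 1482 CPM with an exact Poisson 95% interval of 1081 to 1983, which covers counting error only. A single one of those 8 cells held 23 of the 45.

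Plau, the ligand of this receptor, was sparse. Macrophage- or monocyte-like cells held 34.9 ± 16.5 CPM (n = 6), from 13.1 to 58.0, and fibroblast-like cells 24.4 ± 6.92 CPM (n = 5), from 17.2 to 34.7. These ranges overlapped. Melanoma-like cells, by contrast, had 0 Plau UMIs in 455 cells and 19568403 UMIs, which by the limit of 3 counts allows a level of up to 0.153 CPM (exact Poisson 95% upper bound 0.189) and a share of up to 0.659% of cells with a UMI. The melanoma-like cells thus carried the receptor transcript, but no urokinase transcript was detectable at this depth.

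Serpinb2 was sparse as well. Macrophage- or monocyte-like cells held 22.3 ± 10.5 CPM (n = 6), from 10.4 to 41.4, and NK cell-like cells had 0 UMIs. Fibroblast-like cells averaged 11.7 ± 16.7 CPM (n = 5, 0 to 35.5) and melanoma-like cells 1.91 ± 3.16 CPM (n = 5, 0 to 7.43), so each class overlapped the one above it. All 11 Serpinb2 UMIs of fibroblast-like Empty vector cells lay in 1 cell of h8, whereas the 10 of Bmal1 WT h3 were spread over 5 cells. In melanoma-like Bmal1 WT cells 28 of 35 UMIs lay in 1 cell of h5. Over all fibroblast-like Bmal1 WT cells, with or without a hashtag, 90 of 106 UMIs lay in 1 cell without a hashtag, and the level was 20.7 CPM with it and 3.16 without it.

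**Figure D1:**
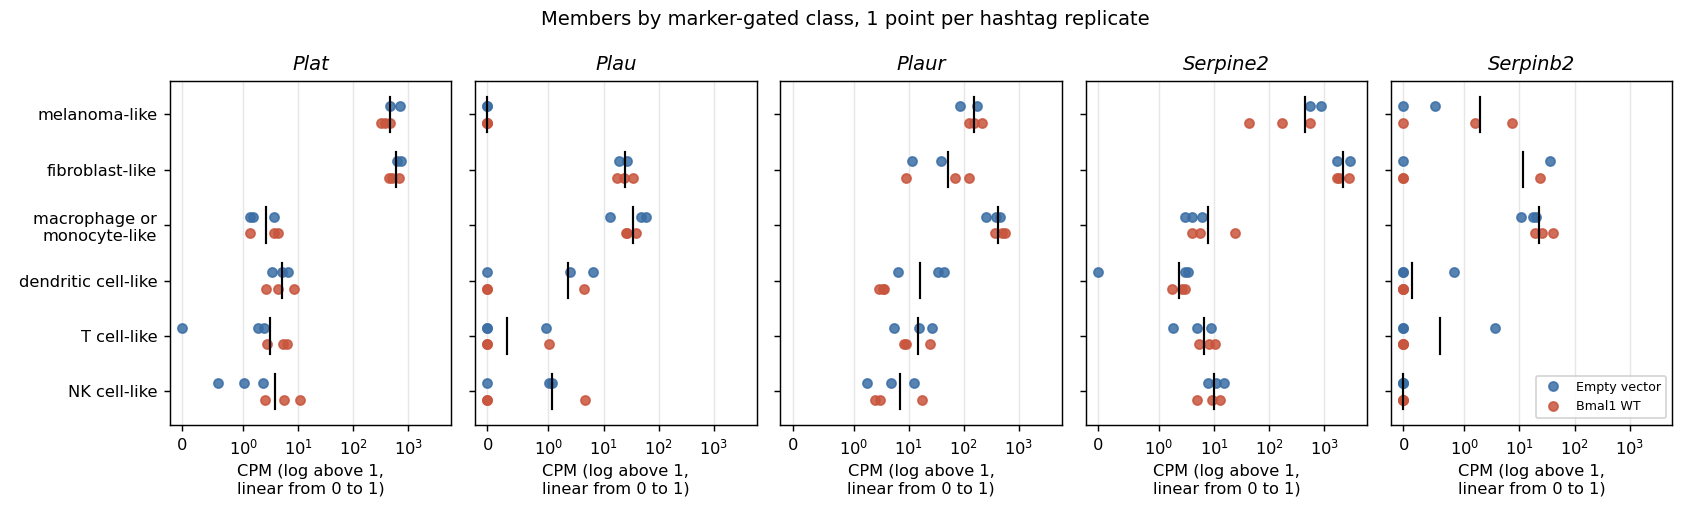
Levels of the 5 members (CPM, log axis above 1 and linear from 0 to 1) in 6 marker-gated classes, with 1 point per hashtag of at least 10 cells in the Empty vector (blue) and Bmal1 WT (red) libraries and a black bar at the mean over hashtags. Plat and Serpine2 are high in melanoma-like and fibroblast-like cells, Plaur is highest in macrophage- or monocyte-like cells, and Plau is at 0 in melanoma-like cells.

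Shares of cells with a UMI were set beside a class that should lack the gene and beside the depth of the cells. Plat was seen in 70.5% of melanoma-like Empty vector cells (exact Clopper-Pearson 95% interval 61.6 to 78.4, median 18032.5 UMIs per cell) and in 70.9% of Bmal1 WT cells (65.7 to 75.7, median 25864). In T cell-like cells, which should lack it, the shares were 1.16% (median 4188 UMIs) and 3.83% (median 6458). When each cell with at least 2000 UMIs was thinned to 2000, leaving out 12 and 32 melanoma-like cells and 163 and 11 T cell-like cells, the expected shares with Plat were 42.8% and 36.9% in melanoma-like cells and 0.525% and 1.05% in T cell-like cells.

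Plaur was seen in 75.6% of macrophage- or monocyte-like Empty vector cells (72.2 to 78.8) and in 77.0% of Bmal1 WT cells (72.5 to 81.2), and thinned shares were 47.9% and 49.9%. Plau was seen in 14.5% and 14.0% of these cells and Serpinb2 in 9.12% and 13.2%, with thinned shares of 6.53% and 4.80% for Plau and 3.37% and 4.93% for Serpinb2. The T cell-like shares at the same thinning were 0.0650% and 0.0550% for Plau. The low transcripts Plau and Serpinb2 were thus held by a minority of macrophage- or monocyte-like cells at this depth, whereas Plaur was widespread.

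Plat and Serpine2 in macrophage- or monocyte-like cells stood near the level of lymphocytes. Serpine2 was seen in 2.69% of Empty vector cells of that class, against 3.42% of NK cell-like cells. A sum of 28 Serpine2 UMIs in h5 came to 82.1% from 1 cell, and without that cell h5 fell from 23.7 to 4.39 CPM.

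The 3 genes most like each member were ranked by Pearson r of log2(CPM + 10) over the same 34 sums, among 11768 genes with at least 100 UMIs. Serpine2 was closest to the collagen genes Col5a1 (r = 0.984), Col16a1 (0.983) and Col6a2 (0.982). Plat was closest to Rbfox2, Dennd2a and Serpinh1 (r = 0.99 for each), of which Serpinh1 is a collagen chaperone. Plaur was closest to Cd44, the hyaluronan receptor (0.900), Flt1 (0.891) and Rin2 (0.888). Plau was closest to Mgst1 (0.932), Nhsl2 (0.928) and G0s2 (0.919), and Serpinb2 to C1rl (0.855), Tgm1 (0.853) and Pla2g7 (0.833). Among members, Plau and Serpinb2 had an r of 0.75, Plaur and Serpinb2 0.69 and Plau and Plaur 0.57.

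Within the melanoma-like class, Serpine2 was uneven from cell to cell. Among the 246 cells with at least 20000 UMIs, Serpine2 was under 20 CPM in 30.5% of the 59 Empty vector cells and in 37.4% of the 187 Bmal1 WT cells, while single cells reached 3925 and 9602 CPM. The share under 20 CPM was 20% in h1 (20 cells) and 52.9% in h8 (17 cells) of Empty vector, and 53.3% in h3 (15 cells), 37.3% in h5 (51 cells) and 68.2% in h9 (22 cells) of Bmal1 WT. The hashtags of both groups overlapped in this share. Fewer cells were poor in Plat, which was under 20 CPM in 3.39% of the Empty vector and 10.7% of the Bmal1 WT cells, although a single Empty vector cell reached 12843 CPM and the highest Bmal1 WT cell 1581.

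Cells poor in Serpine2 differed from the others in more than that gene. Erbb3, a receptor of the neural crest lineage and a marker of the class, was at 3.10 CPM in the Serpine2-poor cells of h1 and 123 in the rest. In h8 it was at 1.21 against 93.0 CPM, in h3 at 0 against 70.7, in h5 at 21.8 against 84.0 and in h9 at 3.74 against 103. Erbb3 was therefore lower in the Serpine2-poor cells of every one of these 5 hashtags, and so was Sox10 (36.4 to 146 CPM against 133 to 252). Plaur went the other way in 4 of 5 hashtags, with 143, 219, 195 and 270 CPM in the Serpine2-poor cells of h1, h8, h3 and h5 and 76.5, 133, 67.1 and 194 in the rest. In h9 Plaur was at 152 and 161 CPM. Among cells without a hashtag it was at 277 CPM in 5 Serpine2-poor Empty vector cells and 127 in the other 15, but at 140 in 25 Bmal1 WT cells and 151 in the other 70, so the order was not general. Plat was lower in the Serpine2-poor cells of all 5, at 296 to 540 CPM against 372 to 815. Median depth ran from 43354 to 137521.5 UMIs per cell in the richer cells and from 59400 to 77599.5 in the poorer, and its part in the split was not tested.

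**Figure D2:**
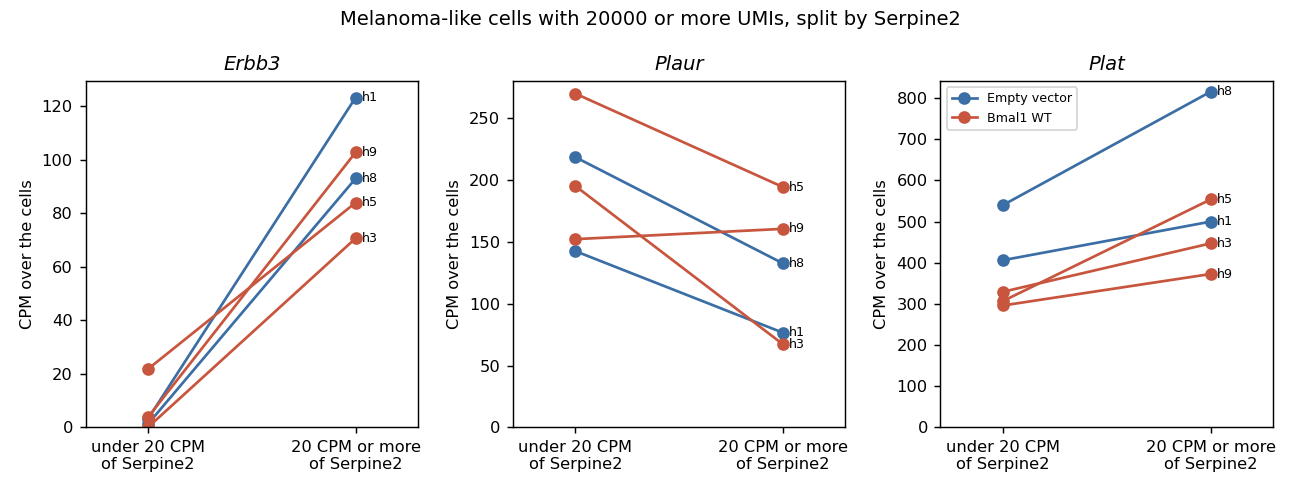
CPM of Erbb3, Plaur and Plat over melanoma-like cells with at least 20000 UMIs, separately for cells under 20 CPM of Serpine2 and for the rest, with 1 line per hashtag (Empty vector blue, Bmal1 WT red; h7 had 1 such cell and is left out). Erbb3 and Plat are higher on the right in all 5 hashtags, and Plaur is lower there in 4 of them.

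Across these 246 cells the Spearman correlation of Serpine2 with Plaur was -0.38 and with Plat 0.21. Across the 165 fibroblast-like cells of that depth it was -0.14 with Plaur and 0.57 with Plat. These are descriptions over cells that share libraries, and no p is given. Cells without a Sox10 UMI held less Serpine2 in the Bmal1 WT library (159 CPM in 81 cells, against 586 in 252 cells with one) but not in the Empty vector library (775 CPM in 20 cells, against 737 in 102), and this difference between libraries was not tested. Cells without a Sox10 UMI were shallower, with a median of 16215 against 30329 UMIs in Bmal1 WT. In Empty vector the medians were 6004.5 against 24416.5 UMIs, and the part of depth was not tested.

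Barcodes with under 1% of UMIs from mitochondrial genes made up 42 of 122 melanoma-like cells in Empty vector and 103 of 333 in Bmal1 WT, and 36 and 89 of these bore no hashtag. They held less Plat, at 143 CPM (110 to 184) in Empty vector and 50.9 (40.0 to 63.8) in Bmal1 WT, against 690 (667 to 714) and 435 (424 to 446) in the other melanoma-like cells (exact Poisson 95% intervals). Plaur was likewise at 30.1 (16.0 to 51.4) and 50.2 (39.4 to 63.0) CPM, against 140 (130 to 152) and 174 (167 to 181). Serpine2 in these barcodes was at 641 CPM (568 to 721) in Empty vector, with 49.8% of its UMIs in 1 cell, and at 154 (135 to 175) in Bmal1 WT.

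Macrophage- or monocyte-like cells were divided by C1q, the complement genes C1qa, C1qb and C1qc that are among the macrophage markers used here. Cells without a C1q UMI held more Plaur than cells with 3 or more in every hashtag. In Empty vector the levels were 408 against 334 CPM in h1, 267 against 236 in h7 and 464 against 326 in h8. In Bmal1 WT they were 392 against 288 in h3, 692 against 474 in h5 and 579 against 244 in h9. Serpinb2 showed the same order in all 6 hashtags, at 19.8 to 46.0 CPM without C1q (8 to 52 UMIs) and 0 to 7.02 with it (0 to 2 UMIs). Plau did not, being higher with C1q in h3 (82.7 against 20.3 CPM), h7 and h8 and lower in h1, h5 and h9. Median depth was higher in the cells with C1q (8799.5 to 15593.5 UMIs) than in those without (7179.5 to 10035.5), and its part was not tested.

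The comparison of Bmal1 WT with Empty vector asked whether these genes differ with Bmal1 status in 3 classes. UMIs were summed by hashtag and tested with edgeR's quasi-likelihood test over all genes with at least 100 UMIs. In melanoma-like cells 3 of 5 members passed that minimum (Plat, Plaur and Serpine2), in fibroblast-like cells the same 3, and in macrophage- or monocyte-like cells Plau, Plaur and Serpinb2. No member was called at an adjusted p of 0.05 in any class, and neither was any other gene, so the background of calls was 0% of 8507, 3585 and 7163 genes tested. At an unadjusted p under 0.05 edgeR gave 355, 279 and 952 genes, and DESeq2's Wald test called 6, 16 and 10 at an adjusted p of 0.05. For 5000 genes of the macrophage- or monocyte-like class DESeq2 gave no adjusted p. In bulk sums such as these, fewer cells that express a gene and less RNA per cell cannot be told apart.

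In melanoma-like cells Plat was at 469, 981 and 693 CPM in Empty vector h1, h7 and h8, and at 380, 469 and 317 in Bmal1 WT h3, h5 and h9. The groups did not overlap, but h1 and h5 stood less than 1 CPM apart, and h7 had only 5 cells. Without the top cell of each hashtag the levels were 407, 452 and 574 CPM in Empty vector and at 353, 427 and 296 in Bmal1 WT, and the groups overlapped. The log2 fold change of Bmal1 WT over Empty vector was -0.83 (SE 0.29, edgeR adjusted p = 1.0). Without h7 it was -0.58.

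Serpine2 in the same cells was at 871, 790 and 558 CPM in Empty vector and at 169, 558 and 43.6 in Bmal1 WT, so the lowest Empty vector and the highest Bmal1 WT hashtag were level. Its log2 fold change was -1.50 (SE 0.70, edgeR adjusted p = 1.0). Single cells weighed heavily in these sums, holding 20.3% to 89.7% of a hashtag's Serpine2 UMIs. Without the top cell h7 was at 248 CPM and h5 at 470, so the groups overlapped there too. Cells without a hashtag stood at 660 CPM in Bmal1 WT and at 812 in Empty vector. With all cells of the class summed per library the log2 ratio was -0.54. Without h5 it was -2.80, and with hashtags called by the centred log count it was -0.69.

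Plaur in melanoma-like cells was at 84.3, 150 and 169 CPM in Empty vector and at 125, 215 and 153 in Bmal1 WT. The groups overlapped, and the log2 fold change was 0.34 (SE 0.33, edgeR adjusted p = 1.0). Of the 3 members tested in this class, 2 had groups that did not overlap, beside 10.2% of all genes tested in either direction and 5.55% with Bmal1 WT lower, and since the members were chosen with these values known nothing is read from that count.

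In fibroblast-like cells Plat was at 616, 510 and 749 CPM in Empty vector and at 509, 438 and 688 in Bmal1 WT (log2 fold change -0.20, SE 0.27, edgeR adjusted p = 0.90). Serpine2 was at 1718, 2672 and 2912 CPM in Empty vector and at 2853, 1836 and 1683 in Bmal1 WT (-0.20, SE 0.30, edgeR adjusted p = 0.91). Both genes overlapped between groups. A single h3 cell held 633 of the 1232 Serpine2 UMIs of its hashtag. Without the top cell of each hashtag Serpine2 was at 1483, 2997 and 2889 CPM in Empty vector. In Bmal1 WT it was then at 1479, 1549 and 1467 CPM, so the groups overlapped through h1 and h5 alone. Plaur was at 11.6, 24.1 and 38.7 CPM in Empty vector and at 69.5, 126 and 8.83 in Bmal1 WT, where h9 lay below every Empty vector hashtag. Its log2 fold change was 1.46 (SE 0.77, edgeR adjusted p = 0.70), from 20 and 99 UMIs. Plau, with 16 and 32 UMIs, was too sparse for the test, at 27.0, 14.4 and 19.4 CPM in Empty vector and at 34.7, 17.2 and 23.5 in Bmal1 WT. Empty vector h7 had only 8 fibroblast-like cells. No other replicate of the class was that small. In the larger set of fibroblast-like cells without a hashtag (98 and 179), Plaur was at 41.1 CPM (31.9 to 52.0) and 50.4 (43.5 to 58.1). Plat in that set was at 937 CPM (891 to 985) in Empty vector and 682 (656 to 709) in Bmal1 WT. Serpine2 was at 3474 CPM (3385 to 3565) and 2318 (2270 to 2368).

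In macrophage- or monocyte-like cells, where every hashtag held 71 to 308 cells, Plaur was at 389, 248 and 447 CPM in Empty vector and at 360, 556 and 496 in Bmal1 WT. The groups overlapped, and the fitted log2 fold change was 0.37 (SE 0.24, edgeR adjusted p = 0.52). Serpinb2 was at 19.8, 10.4 and 17.8 CPM in Empty vector and at 25.1, 19.5 and 41.4 in Bmal1 WT. These groups overlapped through h1 and h5 alone, and the log2 fold change was 0.69 (SE 0.33, edgeR adjusted p = 0.41). Plau was at 47.9, 13.1 and 58.0 CPM in Empty vector and at 38.9, 26.2 and 25.4 in Bmal1 WT (log2 fold change -0.45, SE 0.41, edgeR adjusted p = 0.67). In this class, 0 of 3 members had groups that did not overlap, beside 19.0% of all genes tested, and in fibroblast-like cells it was 0 of 3 beside 12.7%. With Bmal1 WT lower, those backgrounds were 10.4% and 7.84%. The 6 neutrophil markers together were at 141 to 182 CPM in Empty vector and 118 to 180 in Bmal1 WT sums of this class, with S100a9 at 0 in all 6 hashtags and 3 or 4 markers detected in each, and their part in the Plaur values was not tested.

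**Figure D3:**
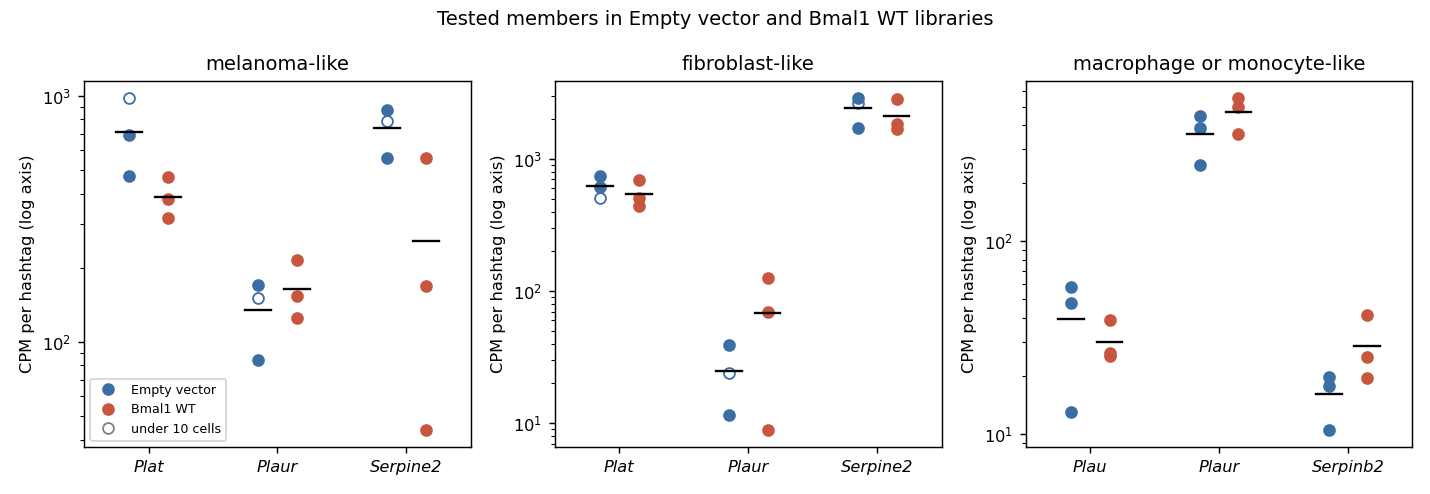
CPM of the members with at least 100 UMIs in each of 3 classes (log axis), with 1 point per hashtag for Empty vector (blue) and Bmal1 WT (red), open where the hashtag had under 10 cells of the class, and a black bar at the mean of 3 hashtags. Plat and Serpine2 lie lower in Bmal1 WT melanoma-like cells with the nearest hashtags level, and the other members overlap.

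The wider pathway was followed in a list of 39 genes, none of them a member. Of these, 17 were tested in melanoma-like, 15 in fibroblast-like and 18 in macrophage- or monocyte-like cells, and 0 were called in any class, beside the 0% background. At an unadjusted edgeR p under 0.05, 1 was higher and 1 lower in Bmal1 WT melanoma-like cells, 3 higher and 2 lower in fibroblast-like cells, and 3 higher and 1 lower in macrophage- or monocyte-like cells. Over all genes tested, 126 were higher and 229 lower of 8507 in melanoma-like cells by the same measure. The counts were 99 and 180 of 3585 in fibroblast-like cells, and 431 and 521 of 7163 in macrophage- or monocyte-like cells. The median log2 fold change of the list was 0.01, -0.14 and 0.12 in these classes, against -0.01, -0.08 and -0.03 over all genes tested. The genes behind the unadjusted counts of the list, other than Lrp1 and S100a10 (both higher in fibroblast-like cells and named whatever their values), are named here after their values were seen. They were Eno1 (higher) and the integrin gene Itgb5 (lower) in melanoma-like cells, the thrombin receptor gene F2r (higher) and the matrix metalloproteinase genes Mmp9 and Mmp14 (lower) in fibroblast-like cells, and Mmp9, Mmp12 and Mmp13 (higher) and Itgav (lower) in macrophage- or monocyte-like cells. Mmp12, an elastase of macrophages, was at 40.0, 161 and 128 CPM in Empty vector and at 341, 1260 and 316 in Bmal1 WT macrophage- or monocyte-like cells, without overlap (log2 fold change 2.58, SE 0.64, edgeR adjusted p = 0.22). Mmp13 followed the same order at 6.73, 0 and 8.66 against 26.5, 35.5 and 10.7 CPM (2.02, SE 0.57, edgeR adjusted p = 0.25), whereas Mmp9 in that class rested on h3 alone (297 CPM, with h5 and h9 at 0). In fibroblast-like cells Mmp9 was at 77.0, 1396 and 116 CPM in Empty vector and at 76.4, 51.6 and 14.7 in Bmal1 WT. There h7, with 8 cells, stood far above the rest, and h1 and h3 were level. Plg, plasminogen itself, and the fibrinogen genes Fga, Fgb and Fgg had 0 UMIs in all kept cells, as did Serpina5 and Cpb2.

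S100a10, Anxa2 and Plgrkt, which hold plasminogen at the cell surface, overlapped between groups in melanoma-like cells. S100a10 and its partner Anxa2 there had log2 fold changes of 0.00 (SE 0.21) and -0.05 (SE 0.29), and the plasminogen receptor Plgrkt -0.01 (SE 0.25), each at an edgeR adjusted p of 1.0 and each turning sign under other scalings or filters. In fibroblast-like cells S100a10 was at 154, 298 and 284 CPM in Empty vector and at 435, 722 and 415 in Bmal1 WT, without overlap (log2 fold change 1.10, SE 0.34, edgeR adjusted p = 0.58), and Anxa2 was at 0.14 (SE 0.26), which turned sign with all cells summed. In macrophage- or monocyte-like cells the values were 0.44 (SE 0.20) for S100a10, 0.03 (SE 0.24) for Anxa2, which also turned sign, and 0.45 (SE 0.22) for Plgrkt, at edgeR adjusted p of 0.38, 0.98 and 0.41. Plgrkt there was at 96.1, 99.2 and 106 CPM in Empty vector and at 109, 188 and 117 in Bmal1 WT, without overlap.

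Lrp1, the receptor that clears activator and serpin complexes, had a log2 fold change of 0.01 (SE 0.29) in melanoma-like cells and 0.12 (SE 0.19) in macrophage- or monocyte-like cells, and both turned sign under other settings. In fibroblast-like cells it was at 331, 226 and 339 CPM in Empty vector and at 463, 495 and 409 in Bmal1 WT, without overlap, for a log2 fold change of 0.60 (SE 0.26, edgeR adjusted p = 0.61). Bmal1 WT hashtags lay wholly above Empty vector ones for 4.64%, 4.88% and 8.64% of all genes tested in melanoma-like, fibroblast-like and macrophage- or monocyte-like cells. By class, S100a10 was highest in melanoma-like cells (1366 ± 125 CPM, n = 5) and Lrp1 in fibroblast-like cells (407 ± 72.9 CPM, n = 5).

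**Figure D4:**
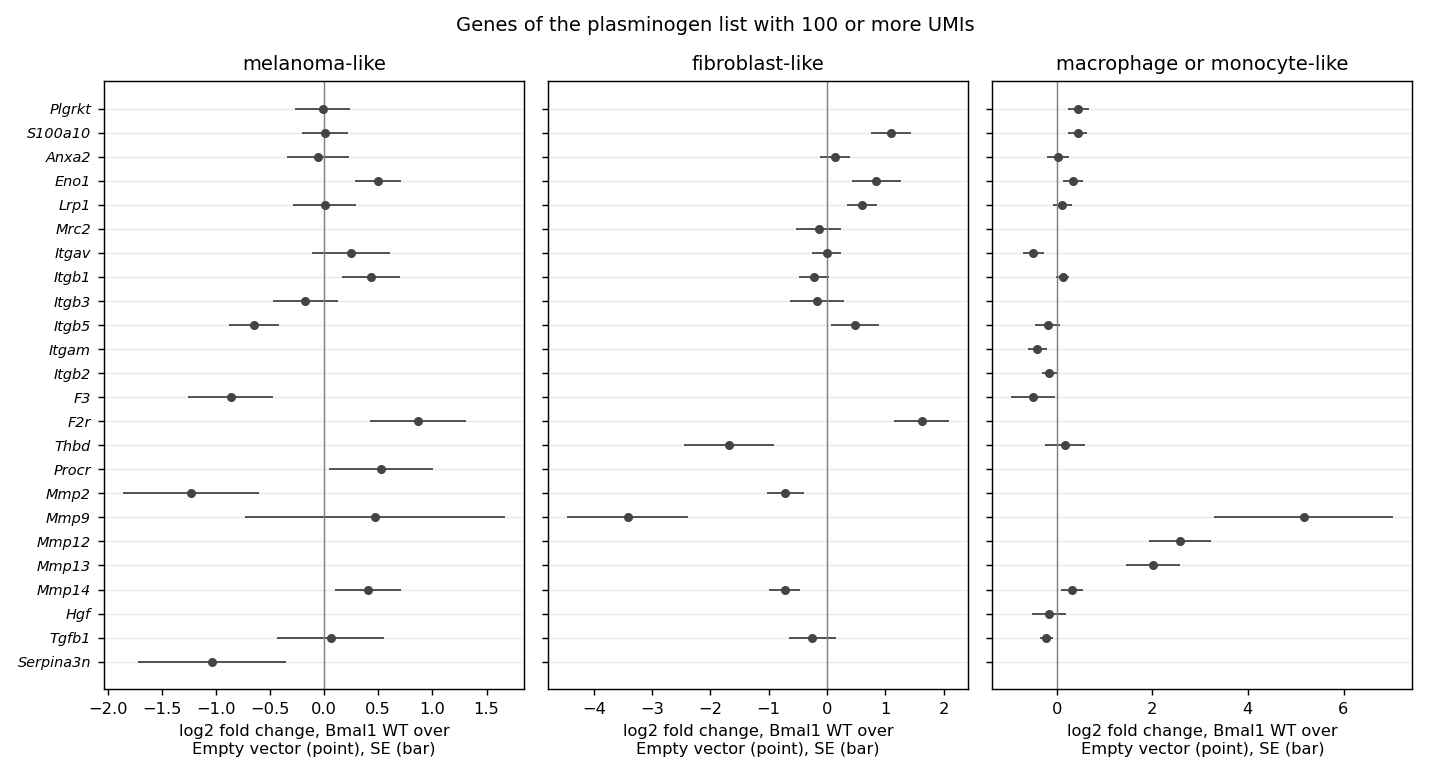
Log2 fold change of Bmal1 WT over Empty vector (point) with its SE (bar) for the genes of the plasminogen list with at least 100 UMIs in any of 3 classes, from edgeR; a missing point means fewer UMIs in that class. The horizontal range differs between panels. In macrophage- or monocyte-like cells Mmp9 stands at 5.16 (SE 1.88), Mmp12 at 2.58 and Mmp13 at 2.02. In fibroblast-like cells Mmp9 stands at -3.42 (SE 1.04), Thbd at -1.68, F2r at 1.63 and S100a10 at 1.10. No gene was called at an adjusted p of 0.05.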

How the data were processed

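Per the labels, cells were captured with the 10x Genomics 3′ chemistry (version 3.1), and the submitters' processing notes name Cell Ranger and the mm10 build. The deposited counts are raw UMI counts per gene and barcode, written by Cell Ranger 6.1.2 per the file headers, unnormalized and with no strand setting given in the sources used here. The members and gene lists were chosen with earlier results of these data known.

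Barcodes with at least 200 genes and at most 20% mitochondrial UMIs were kept. Hashtags were called per library with a Gaussian mixture on log counts (scikit-learn 1.9.0). Doublets were not called, and cells with several hashtags entered no replicate. A cell joined a class when at least 3 of its markers had a UMI and the detected share of its marker list was at least 1.5 times that of any other class with 3 or more. Sums per class and hashtag, scaled by total UMIs, were tested with edgeR 4.0.16 (R 4.3.3) with Benjamini-Hochberg adjustment for genes with at least 100 UMIs, and the step was tested on simulated data. A replicate with under 10 cells stayed in the fit but gave no class level. An SE is the log2 fold change divided by the square root of F. Depth was 34232927 and 39561569 gene UMIs. Alternatives used DESeq2 1.42.0, limma 3.58.1 and scanpy 1.11.5. Besides the members, the text names Lrp1, S100a10, Anxa2, Plgrkt, genes of the list that were called (there were none), and the 3 genes most like each member. Other genes of the list are named where their values or counts of 0 drew attention, and a gene that the naming rule included is not reported here. Promoters came from RefSeq.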

Additional observations from a re-analysis of the deposited data

Results flagged for a closer look

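Cells that fell in no class (614 Empty vector, median 3249 UMIs, and 498 Bmal1 WT, median 2512) entered none of the comparisons, and 3 members were higher there in Bmal1 WT than in Empty vector beyond counting error, while Plat was lower, at 119 CPM (110.1 to 128) against 148 (137 to 160). Plaur was at 184.7 CPM (exact Poisson 95% interval 174 to 196) against 110 (100.4 to 120). Serpine2 was at 238.7 CPM (226 to 252) against 133 (122 to 144). Serpinb2 was at 179.3 CPM (168 to 191) against 3.48 (1.99 to 5.66), and 963 of its 1023 UMIs lay in 1 h3 cell with 333533 UMIs in all, 3 melanoma markers and 4 fibroblast markers. Without the top cell of each library these levels were 165 against 88.7 CPM for Plaur, 175 against 97.8 for Serpine2, 11.2 against 1.97 for Serpinb2 and, in the other direction from before, 108 against 100.5 for Plat. By hashtag, Plaur was at 95.9, 62.3 and 98.2 CPM in Empty vector and at 231, 225 and 133 in Bmal1 WT, without overlap, but Serpine2 was at 22.4, 6.36 and 83.6 against 207, 322 and 17.2, Serpinb2 at 6.30, 1.27 and 1.82 against 745, 28.4 and 0, and Plat at 34.3, 10.2 and 165 against 67.8, 175 and 192. Hashtags overlapped for Serpine2 and Serpinb2, and for Plat through h8 and h3. Of the Serpine2 UMIs of h3, 260 of 268 lay in 1 cell. Single cells also held 170 of the 300 Plaur UMIs of h3 and 123 of the 332 of h5. Without the top cell of each hashtag Plaur was at 77.5, 53.7 and 82.7 CPM in Empty vector. In Bmal1 WT it was then at 135, 172 and 111 CPM. The share of all genes without overlap was not counted in these cells, so nothing is read from that of Plaur. Each library is 1 channel, so these intervals compare the libraries and not the conditions. The cells of no class also differed in make-up. Barcodes with under 1% mitochondrial UMIs were 214 of 498 in Bmal1 WT and 83 of 614 in Empty vector. Those without a hashtag were 222 and 95, and the part of this make-up in the levels was not tested.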

How the results depend on the processing

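The 9 member log2 fold changes kept their direction under every alternative that gave a value, except Serpine2 in fibroblast-like cells. That change turned to 0.19 with Leiden clusters as classes and to 0.10 without barcodes under 1% mitochondrial UMIs. No member passed the threshold, and the causes were not tested. Values ran from -1.16 to -0.48 for Plat, 0.00 to 0.69 for Plaur and -2.80 (without h5) to -0.54 for Serpine2 in melanoma-like cells, and from -0.77 to -0.013 for Plat, -0.47 to 0.19 for Serpine2 and 0.63 to 2.0 for Plaur in fibroblast-like cells. In macrophage- or monocyte-like cells they ran from -0.75 to -0.13 for Plau, 0.16 to 0.55 for Plaur and 0.41 to 0.89 for Serpinb2. Genes called numbered 6, 16 and 10 with DESeq2 and 29, 244 and 248 with no minimum of UMIs in melanoma-like, fibroblast-like and macrophage- or monocyte-like cells, and 1 in fibroblast-like cells with equal weight per cell. Leaving out single hashtags gave 0 calls in melanoma-like cells, 0 to 4 in fibroblast-like cells (4 without h9, 1 without h5) and 0 to 50 in macrophage- or monocyte-like cells (50 without h7, 1 without h1). S100a10 in fibroblast-like cells was called with no minimum (adjusted p = 0.0486), and its adjusted p over the alternatives ran up to 0.93. The level of Plau moved to 32 CPM in fibroblast-like cells with hashtags by centred log count and to 16.5 without barcodes under 1% mitochondrial UMIs, and to 102 in macrophage- or monocyte-like cells with Leiden clusters. The mitochondrial alternative was chosen after seeing the data.

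Changes near 0 turned direction. For Lrp1 in melanoma-like cells the value was -0.10 with the stricter cell filter, -0.025 with centred log counts and -0.045 without barcodes under 1% mitochondrial UMIs, and -0.20 to 0.25 leaving out a hashtag. S100a10 there was at -0.0053 with the stricter cell filter, -0.037 with none, -0.15 without those barcodes and -0.012 with all cells, and at -0.14 to 0.15 leaving out a hashtag. Anxa2 there was at 0.0055 with TMM, 0.10 with centred log counts, 0.33 with equal weight per cell, 0.27 without those barcodes and 0.18 with all cells, and at -0.24 to 0.31 leaving out a hashtag. Plgrkt there was at 0.0077 with TMM, 0.030 with DESeq2, 0.019 with the stricter cell filter, 0.013 with clusters, 0.13 with the stricter gate and 0.17 with equal weight, and at -0.092 to 0.19 leaving out a hashtag. Anxa2 in fibroblast-like cells was at -0.044 with centred log counts and -0.15 with all cells. In macrophage- or monocyte-like cells Lrp1 was at -0.030 with all cells and -0.0032 to 0.36 leaving out a hashtag, and Anxa2 at -0.020 with centred log counts, -0.0060 with equal weight, -0.043 with all cells and -0.21 to 0.17 leaving out a hashtag.

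No paired analysis was possible because the hashtags of the groups share no number. On simulated counts, the test recovered 23 of 91 genes changed 4-fold in melanoma-like sums and 1 of 109 changed 2-fold, so most changes of this size went uncalled there.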
